A study of Mus musculus with 8 samples.

Results

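The 10 immediate early genes described here are Fos, Fosb, Jun, Junb, Atf3, Egr1, Egr2, Egr3, Nr4a1 and Ier2. They were chosen by name, through the Entrez identifier of each row, and are 10 of the 23469 genes counted. Lungs of C57BL/6 wild type (WT) mice and of C57BL/6 mice labelled DDAH1-transgenic (TG) were studied after PBS or house dust mite extract (HDM), an allergen used to model asthma. DDAH1 is the enzyme that breaks down asymmetric dimethylarginine, an inhibitor of nitric oxide synthase. Mice received 100 µg of HDM into the trachea in a volume of 50 µl, or that volume of PBS alone, at 3 challenges per week over 3 weeks, and lungs were taken 24 hours after the last challenge. RNA of 4 mice per group was pooled, and each of the 4 pools was sequenced as 2 libraries, 8 in all. The age of the mice and the promoter and species of the transgene are not given in the sources used here. The SDs, standard errors and p-values given here rest on 2 libraries made of 1 pool per group, so that no variation between mice is in them.

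Immediate early genes are transcribed within minutes of a stimulus, through factors that are already present and need no new protein synthesis. Growth factor signals reach them through the GTPase RAS and the kinases ERK and p38, which act on SRF with its ternary complex factors at CArG boxes and on CREB at cyclic AMP response elements. Most of the products are themselves transcription factors. FOS, FOSB, JUN, JUNB and ATF3 belong to the bZIP family, whose dimers include AP-1, EGR1, EGR2 and EGR3 are zinc finger factors, NR4A1 (Nur77) is an orphan nuclear receptor, and IER2 is a small nuclear protein. Their mRNAs are short-lived, and in lung they are known from the responses of epithelium, endothelium and macrophages to mechanical, oxidative and inflammatory stimuli. Samples taken 24 hours after the last of repeated challenges show levels at that time and not the first wave after a challenge. By the study's methods, airway responses to inhaled methacholine were measured on a ventilator and the lungs were sampled after that, together with lavage, in mice of this protocol. Whether the lungs used for RNA went through these steps is not stated, and their part in the levels was not tested.

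Total counts per library lay between 5694928, in replicate 1 of the HDM-treated TG lungs, and 11929374. Counts of 1 gene were scaled to library size with TMM factors of all 8 libraries and are given as CPM, and 3 counts in a library then stood at 0.232 to 0.449 CPM. Markers of alveolar type 2 cells, club cells and endothelium were present in every library. Xist, the RNA that coats an inactive X chromosome, was at 11.3 to 20.8 CPM in the PBS libraries and at 2048 to 3040 CPM in the HDM libraries, while Ddx3y of the Y chromosome had 621 to 719 counts in the former and 2 or 3 in the latter. The sex of the pools and the treatment can therefore not be told apart in any comparison of HDM with PBS, nor in the interaction of genotype with HDM. Where a gene is said below to rise or fall with HDM, the difference between these pools is meant. Ddah1, counted under the mouse gene, was at 47.7 and 34.3 CPM in PBS-treated WT lungs and at 76.9 and 53.8 CPM in PBS-treated TG lungs. After HDM it was at 43.1 and 44.7 CPM in WT and at 34.9 and 33.4 CPM in TG lungs, so that the HDM libraries labelled TG lay below those labelled WT. Because the sequence of the transgene is not given, its mRNA may or may not be counted here.

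All 10 genes were detected and passed the filter on low counts in every comparison. Together they took 0.0275% to 0.0404% of the counts of a library. Per kilobase of transcript, Jun had the highest mean level over the 8 libraries, 38.9 CPM per kilobase (range 24.5 to 54.8). Fos followed at 24.0 (17.5 to 29.8), then Junb at 15.5 (7.999 to 40.7) and Egr1 at 14.1 (6.27 to 22.5) CPM per kilobase. Nr4a1 stood at 10.5 (5.49 to 15.4), Ier2 at 7.61 (4.23 to 10.7) and Atf3 at 6.01 (3.02 to 10.4) CPM per kilobase. Egr2 averaged 4.73 CPM per kilobase, but its range, 1.08 to 11.6, was wide because the HDM libraries lay far above the PBS libraries. The lowest levels were those of Fosb, 0.855 (0 to 2.98), and Egr3, 0.444 (0 to 0.862) CPM per kilobase. In this order the ranges of every pair of neighbours overlapped. The authors counted reads in coding regions, and per kilobase of coding sequence Jun (124 CPM per coding kilobase) and Fos (44.4) kept the top ranks, Egr1 (39.6) passed Junb (27.1), and Atf3 (22.0) and Ier2 (17.5) passed Nr4a1 (14.9).

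**Figure D1:**
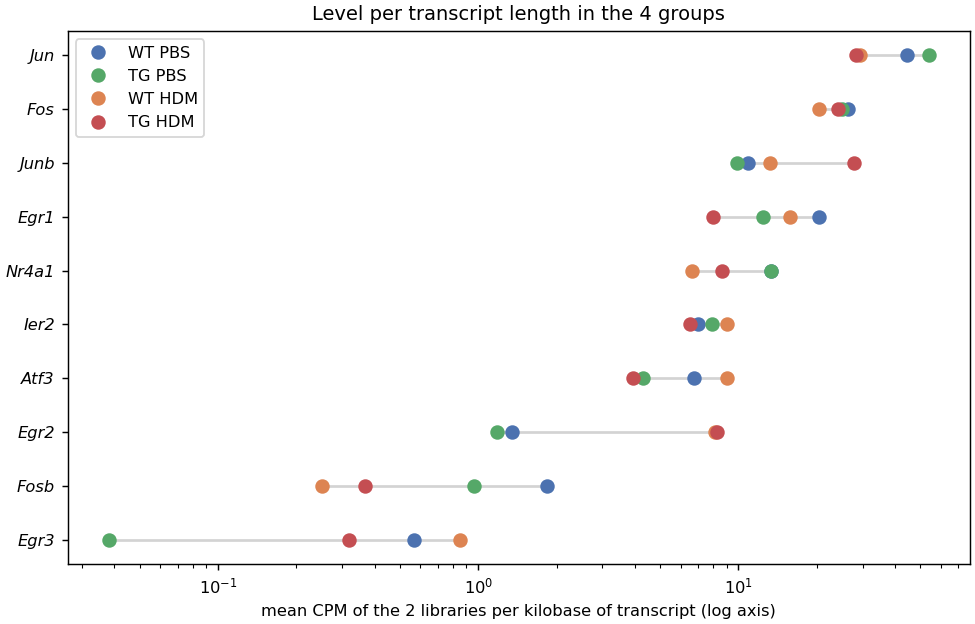
Mean CPM of the 2 libraries of each group per kilobase of transcript, on a log axis, for the 10 genes in order of their mean over all libraries; each point is 1 group and the grey line joins the lowest and the highest group. Egr2 runs from 1.18 CPM per kilobase in PBS-treated TG lungs to 8.24 in HDM-treated TG lungs, and Jun from 28.3 in HDM-treated TG lungs to 53.8 in PBS-treated TG lungs.

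Promoter windows from RefSeq (build GRCm38.p6, 250 bases before the start and 50 bases from it) were used for 7 of the 10 genes. They are those of Fos, Fosb, Jun, Junb, Atf3, Egr2 and Nr4a1. The 4 printed here belong to the 3 genes whose level differed between HDM and PBS in the tests below, Egr2, Jun and Junb, and to Fos, the best known gene of the class. All are written 5′ to 3′ on the strand of the gene. The Egr2 window is chr10:67537619-67537918 on the plus strand, the Jun window chr4:95052173-95052472 on the minus strand, the Junb window chr8:84978699-84978998 on the minus strand and the Fos window chr12:85473640-85473939 on the plus strand. Capitals mark matches to a CArG box (the SRF site) or to TGACG, the core of a cyclic AMP response element, which reads as its reverse complement where it lies on the other strand. A TATA box is in capitals too, and Jun has no match.
Egr2: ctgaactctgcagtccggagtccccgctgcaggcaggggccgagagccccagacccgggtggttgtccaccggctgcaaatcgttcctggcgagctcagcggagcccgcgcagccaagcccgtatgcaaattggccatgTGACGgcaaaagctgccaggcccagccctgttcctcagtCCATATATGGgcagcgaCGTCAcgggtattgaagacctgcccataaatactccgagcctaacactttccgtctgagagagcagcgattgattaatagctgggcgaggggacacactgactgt
Jun: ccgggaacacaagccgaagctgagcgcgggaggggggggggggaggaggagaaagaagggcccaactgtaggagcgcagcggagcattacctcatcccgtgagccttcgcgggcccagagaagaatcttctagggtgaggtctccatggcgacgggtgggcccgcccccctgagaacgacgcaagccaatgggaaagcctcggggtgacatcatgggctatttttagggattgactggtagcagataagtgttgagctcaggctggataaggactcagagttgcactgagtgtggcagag
Junb: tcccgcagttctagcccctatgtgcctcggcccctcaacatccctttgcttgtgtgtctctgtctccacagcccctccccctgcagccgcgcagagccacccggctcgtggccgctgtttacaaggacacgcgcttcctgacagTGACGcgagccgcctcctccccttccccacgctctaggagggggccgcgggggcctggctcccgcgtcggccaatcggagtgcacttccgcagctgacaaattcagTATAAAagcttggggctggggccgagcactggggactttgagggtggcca
Fos: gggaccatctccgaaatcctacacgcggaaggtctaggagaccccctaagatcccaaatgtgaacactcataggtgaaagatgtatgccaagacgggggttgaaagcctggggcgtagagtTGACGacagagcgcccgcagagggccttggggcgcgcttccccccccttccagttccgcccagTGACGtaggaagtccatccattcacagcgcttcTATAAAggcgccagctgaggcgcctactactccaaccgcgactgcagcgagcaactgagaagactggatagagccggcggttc

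Both strands of each window were searched for 6 motifs. The promoters of Egr1, Egr3 and Ier2 were not searched, so whether they hold these motifs, a CArG box among them, was not tested. The core TGACG was present in 6 of the 7 windows, all but that of Jun, against 20.8% of 32851 RefSeq promoter windows of the same length. Among the 6, the RefSeq starts of Atf3 and Nr4a1 lie far from the GENCODE start, at -34706 and 12577 bases in chromosome coordinates. Egr2 has 5 RefSeq windows, and the one used has its start at the GENCODE start. Egr2 carried it 111 bases before the start and again on the other strand at 55, with the CArG box between them at 72 bases before the start. A CArG box was found in 1 of the 7 windows, that of Egr2, against 1.63% of all windows. The TATA box, TATAAA, lay 33 bases before the start of Fos and at the RefSeq start itself in Junb, where the GENCODE start lies 30 bases downstream, and 13.6% of all windows hold it. The EGR site GCGNGGGCG was in the windows of Fosb and Nr4a1, against 5.55% of all windows. The full element TGACGTCA, which contains that core, and the AP-1 site TGANTCA were in 0 of the 7 windows, against 1.79% and 7.81% of all windows. These are matches of letters, and no binding was measured.

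**Figure D2:**
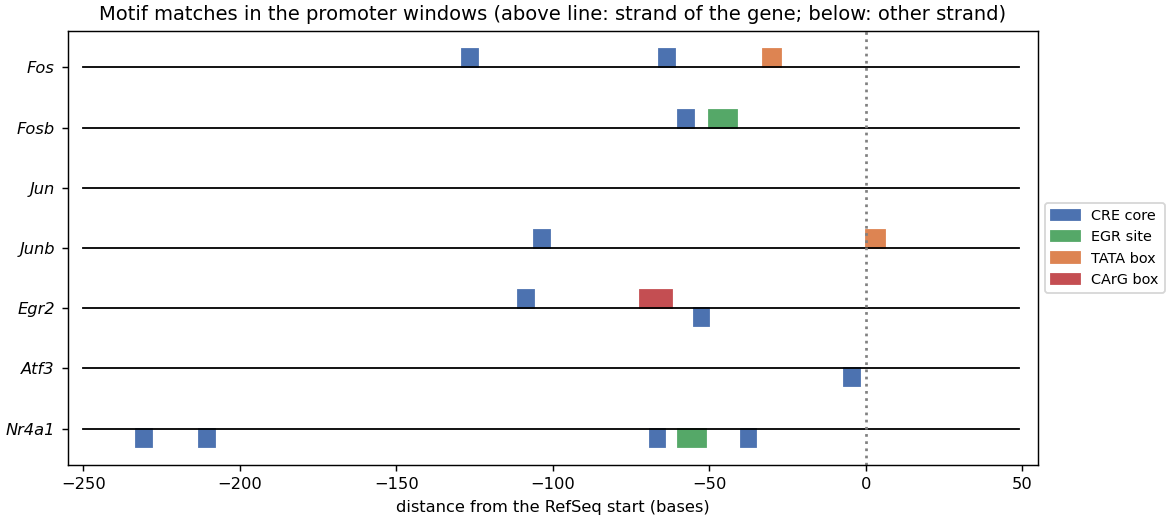
Motif matches in the 7 promoter windows, drawn to scale as bases from the RefSeq start; boxes above a line lie on the strand of the gene and boxes below it on the other strand. The core is found in every window except that of Jun, and the only CArG box within these windows is that of Egr2, 72 bases before the start.

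HDM was first compared with PBS within each genotype. Of the 10 genes, 2 passed the threshold in WT lungs (adjusted p under 0.05), where 6.74% of the 15123 genes tested did (4.44% higher, 2.3% lower), and 3 passed it in TG lungs, where 13.8% of 15086 genes did (8.43% higher, 5.35% lower). At an unadjusted p under 0.05 there were 4 of the 10 in WT (19.9% of all genes) and 3 in TG lungs (27.7%). Egr2 rose in both genotypes, Jun fell in both, and Junb rose in TG lungs. Among genes tested in both comparisons, 2.49% rose in both and 1.24% fell in both. The libraries of HDM and PBS did not overlap for 8 of the 10 genes in WT lungs (4 higher, 4 lower) and for 7 in TG lungs (3 higher, 4 lower), against 49.8% (25% higher, 24.7% lower) and 56.8% (28.8% higher, 28% lower) of all genes tested, so that separation of 2 libraries from 2 is common here. In both genotypes Egr2 and Egr3 lay higher after HDM without overlap, as did 12.6% of genes tested in both, and Fosb, Jun and Nr4a1 lay lower, as did 12.2%. The median log2 fold change of the 10 genes was -0.04 in WT and -0.17 in TG lungs, beside 0.02 and 0.03 for all genes tested. Fold changes, standard errors (SE) and adjusted p-values come from the quasi-likelihood test of edgeR on the 4 libraries of a comparison, adjusted by Benjamini-Hochberg over all genes. An exact test of 2 libraries against 2 cannot go below p = 0.333, so that every call rests on the spread that edgeR shares across genes. That spread is between libraries of the same pool. A call therefore tells 2 pools apart and does not measure variation between mice.

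Egr2, a zinc finger factor of myelin formation and of T cell tolerance that macrophages also express, showed the largest rise of the 10 genes in WT lungs. It was at 3.82 and 4.16 CPM (38 and 51 counts) in PBS-treated WT lungs and at 18.4 and 29.9 CPM (206 and 298 counts) in HDM-treated WT lungs. In TG lungs it was at 3.19 and 3.80 CPM after PBS (32 and 36 counts) and at 34.3 and 14.6 CPM after HDM (229 and 188 counts). All 4 HDM libraries lay above all 4 PBS libraries. The log2 fold change was 2.59 (SE 0.44, adjusted p = 0.00247, 6.03-fold) in WT lungs and 2.83 (SE 0.55, adjusted p = 0.00605, 7.09-fold) in TG lungs. The gene lies on chr10:67534469-67542188, plus strand, and its window above holds the only CArG box among those searched. In WT lungs the call held in each alternative run, with log2 fold changes from 2.19 to 2.90. In TG lungs it was lost without replicate 1 of the PBS libraries (2.69, adjusted p = 0.0930), without replicate 2 of them (2.95, 0.0905) and without replicate 1 of the HDM libraries (2.06, 0.0659).

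The summed macrophage markers, like Egr2, were higher in the HDM libraries, though not every marker was. Markers of other inflammatory cells differed among themselves. The summed level of the 4 macrophage markers in the table (Marco, Mrc1, Cd68, Itgax) was 130 to 146 CPM in PBS-treated WT, 139 to 173 in PBS-treated TG, 503 to 592 in HDM-treated WT and 388 to 469 CPM in HDM-treated TG lungs. Mrc1, Cd68 and Itgax rose in both genotypes, whereas Marco was at 7.59 to 8.24 CPM in PBS-treated WT and at 1.00 to 2.14 CPM in HDM-treated WT lungs and did not pass the threshold (log2 fold change -2.32, adjusted p = 0.0760). In TG lungs Marco was lower without overlap too and did not pass (-1.42, adjusted p = 0.457 in edgeR's test). The 4 eosinophil markers together were at 11.7 to 16.2 CPM in PBS-treated WT, 8.08 to 13.8 in PBS-treated TG, 52.7 to 58.5 in HDM-treated WT and 28.0 to 36.1 CPM in HDM-treated TG lungs, with Epx at 3 counts or fewer in every library. In WT lungs only Rnase2a among them was called, from 0 and 0.0816 to 50.3 and 36.1 CPM, while Prg2 had an adjusted p of 0.617 and Siglecf was lower without overlap (log2 fold change -0.51, adjusted p = 0.605), and in TG lungs Rnase2a and Prg2 were called higher. The summed level of the 9 neutrophil markers was lower in HDM-treated than in PBS-treated WT lungs, at 234 to 241 against 446 to 474 CPM, with S100a8, S100a9, Csf3r and Cxcr2 called lower, and in TG lungs, at 248 to 273 against 185 to 221 CPM, S100a9 was called higher. Summed skeletal muscle markers also differed, at 42.2 to 45.6 CPM in PBS-treated WT and 286 to 288 CPM in HDM-treated WT lungs, and at 240.4 to 255 and 164 to 192 CPM in TG lungs. The 3 club cell markers together were at 29248 to 36604 CPM in PBS-treated WT and 10796 to 12691 CPM in HDM-treated WT lungs, where all 3 were called lower, and at 35423 to 53788 and 10021 to 13774 CPM in TG lungs, where Scgb1a1 and Cyp2f2 were called lower and Scgb3a2 higher. The 3 endothelial markers together were lower after HDM in both genotypes, at 1028 to 1048 against 1393 to 1415 CPM in WT and 644 to 873 against 1601 to 1709 CPM in TG lungs, with Cdh5 called lower in both and Pecam1 in TG lungs. The part of these cells in the levels of the 10 genes was not tested. In RNA of whole lung, more or fewer cells of a type and more or less RNA per cell cannot be told apart.

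Jun, the central partner of AP-1 dimers, fell. It was at 130 and 152 CPM in PBS-treated WT lungs and at 96.7 and 89.9 CPM after HDM. TG lungs had 175 and 168 CPM after PBS and 103 and 78.1 CPM after HDM. Each HDM library lay below each PBS library. The log2 fold change was -0.60 (SE 0.17, adjusted p = 0.0491, 0.661-fold) in WT lungs, close to the threshold, and -0.90 (SE 0.23, adjusted p = 0.0212, 0.536-fold) in TG lungs. The direction held in every alternative, from -0.76 to -0.49 in WT and from -1.13 to -0.51 in TG lungs. The WT call was lost in 1 fit of all 8 libraries (adjusted p = 0.0988), with an offset for transcript length (0.0509) and without PBS replicate 1 (0.0787), PBS replicate 2 (0.351) or HDM replicate 2 (0.0755). The TG call was lost without TMM scaling (-0.51, 0.160) and without PBS replicate 1 (0.190) or 2 (0.194). Jun lies on chr4:95049036-95052222, minus strand, and shares 5.83% of its stretches of 50 bases with the antisense gene Junos, which is not in the count table. Whether strand was used in counting is not given in the sources used here.

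Junb, an AP-1 subunit that often restrains JUN and takes part in Th2 cytokine transcription, behaved differently between the replicates. Its level was 24.2 and 15.0 CPM in PBS-treated WT lungs, 24.2 and 23.6 CPM in HDM-treated WT lungs and 14.5 and 21.2 CPM in PBS-treated TG lungs. The HDM-treated TG libraries gave 73.7 CPM in replicate 1 (492 counts) and 27.2 CPM in replicate 2 (351 counts). Both lay above the other 6 libraries, but replicate 1, the shallowest library, was 2.71 times replicate 2, although both came from the same pool. In TG lungs the log2 fold change was 1.52 (SE 0.45, adjusted p = 0.0436, 2.88-fold), and without replicate 1 of the HDM-treated TG lungs it was 0.61 (adjusted p = 0.471). The call was also lost with the length offset (1.29, 0.111) and without PBS replicate 1 (1.27, 0.305) or 2 (1.82, 0.193). In WT lungs Junb had a log2 fold change of 0.29 (SE 0.35, adjusted p = 0.723). Prdx2, which overlaps Junb on the other strand (5.76% of the stretches of Junb are shared), was at 33.8 and 36.4 CPM in HDM-treated TG lungs and at 15.2 to 22.4 CPM elsewhere, with a log2 fold change of 1.17 (SE 0.35, adjusted p = 0.0434) in TG lungs. Its replicates were closer to each other than those of Junb. Whether reads of Prdx2 entered the counts of Junb was not tested. Junb lies on chr8:84976909-84978748, minus strand.

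The other bZIP genes did not pass the threshold. Fos, the inducible partner of JUN, was at 62.8 and 48.6 CPM in PBS-treated WT lungs and 37.0 and 49.3 CPM after HDM, and at 53.8 and 52.0 against 51.5 and 49.9 CPM in TG lungs. Its log2 fold change was -0.37 (SE 0.25, adjusted p = 0.459) in WT and -0.04 (SE 0.27, adjusted p = 0.950) in TG lungs. Its libraries overlapped between HDM and PBS in WT lungs, and in TG lungs both HDM libraries lay just below both PBS libraries (chr12:85473890-85477274, plus strand). Fosb, the low-level relative of Fos, ranged from 2.61 and 11.3 CPM (26 and 138 counts) in PBS-treated WT lungs to 0.893 and 1.00 CPM (10 counts each) after HDM. In TG lungs it was at 3.29 and 4.01 CPM after PBS and had 0 counts, which allows up to 0.449 CPM, and 2.79 CPM after HDM. Its log2 fold change was -2.86 (SE 0.88, adjusted p = 0.0719) in WT and -1.31 (SE 1.30, adjusted p = 0.566) in TG lungs. In WT lungs it was -1.46 (adjusted p = 0.787) without PBS replicate 2 and passed the threshold when any other library was left out, from -3.56 to -2.78, and in TG lungs it was -0.39 without HDM replicate 1 and -7.99 (adjusted p = 0.0366) without HDM replicate 2, where the remaining HDM library has 0 counts and the fitted value depends on the prior count. Atf3, a stress-induced factor that dampens inflammatory genes, was at 14.9 and 11.999 CPM in PBS-treated WT lungs and 20.7 and 15.1 CPM after HDM, and at 8.28 and 8.77 against 5.99 and 9.68 CPM in TG lungs. Neither genotype gave an adjusted p for Atf3 under 0.624.

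Egr1, the most abundant EGR gene, was at 81.7 and 101 CPM in PBS-treated WT lungs and at 61.8 and 79.2 CPM after HDM. In TG lungs it was at 42.2 and 69.6 CPM after PBS and at 43.4 and 28.1 CPM after HDM. The log2 fold changes, -0.37 (SE 0.20, adjusted p = 0.340) in WT and -0.62 (SE 0.34, adjusted p = 0.270) in TG lungs, did not pass the threshold. Egr3, a factor of lymphocyte tolerance, had 21 and 29 counts (2.11 and 2.37 CPM) in PBS-treated WT lungs and 38 and 33 counts (3.40 and 3.31 CPM) after HDM. TG lungs had 3 and 0 counts after PBS and 7 and 19 counts (1.05 and 1.47 CPM) after HDM. With the PBS libraries set to 3 counts each, Egr3 was 4.09-fold higher after HDM, which is no strict bound. Its adjusted p was 0.769 in WT and 0.274 in TG lungs.

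Nr4a1, which limits inflammatory activation of macrophages and T cells, was at 32.7 and 35.6 CPM in PBS-treated WT lungs and at 14.0 and 19.8 CPM after HDM. TG lungs had 39.3 and 28.8 CPM after PBS and 24.3 and 19.7 CPM after HDM, and all 4 HDM libraries lay below all 4 PBS libraries. The log2 fold change was -1.02 (SE 0.32, adjusted p = 0.0795) in WT and -0.61 (SE 0.35, adjusted p = 0.288) in TG lungs. Neither passed edgeR's threshold, while DESeq2 called Nr4a1 (-1.02, adjusted p = 0.0378) and Fosb (-2.88, adjusted p = 0.0306) in WT lungs, 4 of the 10 genes in all. Ier2 was at 9.85 and 11.3 CPM in PBS-treated WT lungs and 11.3 and 16.3 CPM after HDM, and at 9.78 and 14.3 against 6.44 and 13.4 CPM in TG lungs. Its adjusted p was 0.698 in WT and 0.817 in TG lungs. In a fit of genotype and treatment as separate terms over all 8 libraries, added after the data had been seen, the treatment term was 2.69 for Egr2 (adjusted p = 0.000160), -0.76 for Jun (0.00514) and -0.82 for Nr4a1 (0.0354), and no other of the 10 genes passed.

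**Figure D3:**
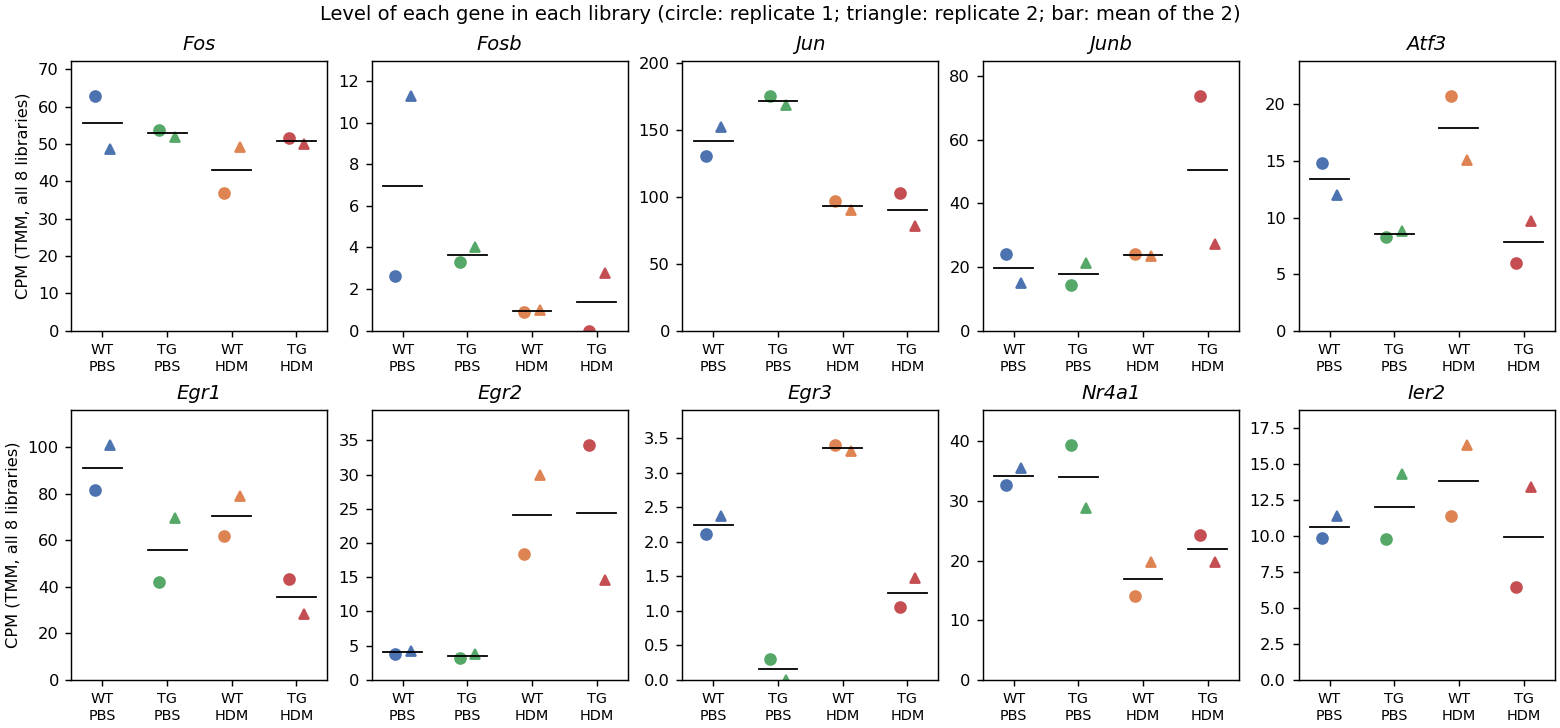
Level of each gene in each library in CPM, each panel with its own axis from 0; circles are replicate 1, triangles replicate 2, and the bar is their mean. In Egr2 all HDM libraries (14.6 to 34.3 CPM) lie above all PBS libraries (3.19 to 4.16), in Jun and Nr4a1 all lie below, and in Junb replicate 1 of the HDM-treated TG lungs (73.7 CPM) stands apart.

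The genotypes were then compared within each treatment. None of the 10 genes passed the threshold after PBS, where 0.657% of the 14926 genes tested did (0.281% higher and 0.375% lower in TG lungs), and none after HDM, where 2.44% of 15191 genes did (1.84% higher, 0.599% lower) (edgeR's quasi-likelihood test). At an unadjusted p under 0.05 there were 2 of the 10 after PBS (9.98% of all genes) and 3 after HDM (16.2%), and DESeq2 gave 0 calls with 2 and 3 at an unadjusted p under 0.05. The libraries did not overlap for 5 genes after PBS (1 higher and 4 lower in TG lungs) and for 5 after HDM (2 higher, 3 lower), against 40.3% (20% higher, 20.4% lower) and 48.2% (23.2% higher, 25% lower) of all genes. The median log2 fold change of the 10 genes was -0.17 after PBS and 0.02 after HDM. Egr1, Egr3 and Atf3 were lower in both TG libraries than in both WT libraries under either treatment, as were 5.59% of 14514 genes tested in both comparisons, and none was higher in both, as 4.93% were. The mouse gene Ddah1 was not higher in the HDM libraries labelled TG, so its level does not bear out their label. The paper lists Flrt2 as raised in TG lungs under both treatments, from these same libraries. Whether Flrt2 marks the genotype was not tested.

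Egr1 had 91.3 ± 13.6 CPM (SD, n = 2) in PBS-treated WT and 55.9 ± 19.4 CPM in PBS-treated TG lungs, and 70.5 ± 12.3 CPM in HDM-treated WT and 35.8 ± 10.8 CPM in HDM-treated TG lungs. The log2 fold change was -0.72 (SE 0.23, unadjusted p = 0.00666, adjusted p = 0.235 in edgeR's test) after PBS and -0.94 (SE 0.31, unadjusted p = 0.00992, adjusted p = 0.148) after HDM. It passed the threshold after PBS without TMM scaling (-0.97, adjusted p = 0.0247) and without replicate 2 of the TG libraries (-1.11, 0.00335), and was -0.39 (0.487) without replicate 1 of them. After HDM it passed without the filter on low counts (-0.95, 0.0349) and without replicate 1 of the TG libraries (-1.31, 0.00971), and was -0.65 (0.213) without replicate 2 of them. Atf3 had 13.4 ± 2.03 CPM in WT and 8.53 ± 0.344 CPM in TG lungs after PBS, and 17.9 ± 4.01 and 7.83 ± 2.61 CPM after HDM. Its log2 fold changes were -0.67 (SE 0.45, adjusted p = 0.686) and -1.15 (SE 0.48, adjusted p = 0.266).

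Egr3 had 2.24 ± 0.182 CPM in PBS-treated WT lungs and 3 and 0 counts in the PBS-treated TG libraries. With the TG libraries set to 3 counts each, Egr3 was 7.26-fold lower, which is no strict bound. Its unadjusted p was 0.00976 and its adjusted p 0.275. After HDM it had 3.35 ± 0.0573 CPM in WT and 1.26 ± 0.299 CPM in TG lungs (log2 fold change -1.36, SE 1.05, adjusted p = 0.571). Neutrophil markers were lower in the PBS-treated TG libraries as well, 185 to 221 CPM summed over 9 genes against 446 to 474 CPM in PBS-treated WT lungs, with 4 of the 9 called lower and Ngp and Camp at 3 counts or fewer. Summed thymocyte markers stood at 47.4 to 61.3 against 107 to 130 CPM. Of these 9, Rag1 and Cd4 were called lower, while Cd3e (log2 fold change 0.05, adjusted p = 0.979 in edgeR's test) and Themis (-0.15, 0.953) overlapped. Summed heart muscle markers stood at 138 to 166 against 285 to 326 CPM (1 of 6 called lower). Adipocyte markers stood at 87.1 to 96.8 against 208 to 255 CPM (2 of 5 tested). Of all genes, 0.375% were called lower. Summed skeletal muscle markers were at 240.4 to 255 against 42.2 to 45.6 CPM. Their part in the levels of Egr1, Egr3 and Atf3 was not tested. After HDM the summed neutrophil markers were at 234 to 241 CPM in WT and 248 to 273 CPM in TG lungs. Of the 7 tested, 0 were called in edgeR's test (2.44% of all genes), while 2 had an unadjusted p under 0.05 (16.2% of all genes).

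Junb was higher in both TG libraries than in both WT libraries after HDM, with a log2 fold change of 1.12 (SE 0.43, adjusted p = 0.217). Without replicate 2 of the TG libraries, the lower of both, the value was 1.67 and passed (adjusted p = 0.000176), whereas without replicate 1, the shallowest library, it was 0.20 (adjusted p = 0.923), and without the filter on low counts it was 1.11 (adjusted p = 0.0293). After PBS Junb was at 19.6 ± 6.50 CPM in WT and 17.9 ± 4.79 CPM in TG lungs. Jun was higher in both PBS-treated TG libraries, with a log2 fold change of 0.27 (SE 0.15, adjusted p = 0.608), and Fos was higher in both HDM-treated TG libraries, with 0.27 (SE 0.29, adjusted p = 0.696). The remaining genes had adjusted p-values of at least 0.660 in both comparisons, with log2 fold changes of -0.94 and 0.62 for Fosb, -0.20 and 0.05 for Egr2, -0.01 and 0.42 for Nr4a1 and 0.17 and -0.43 for Ier2 after PBS and HDM.

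**Figure D4:**
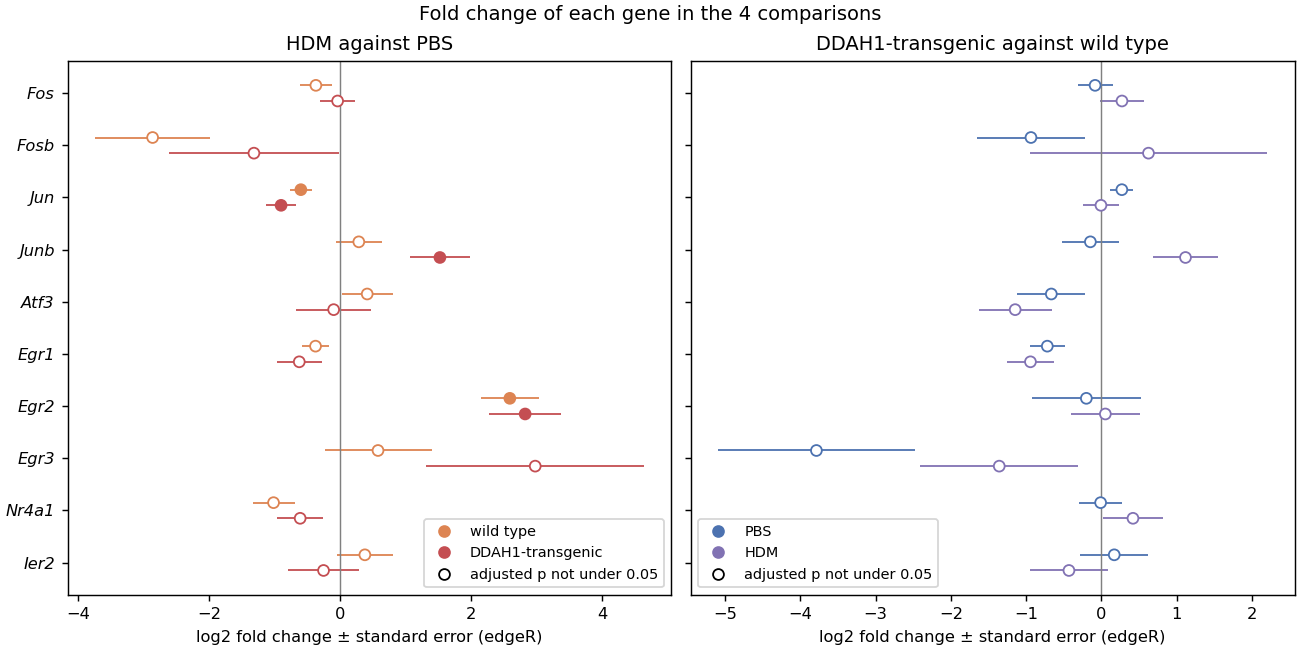
Log2 fold change with its standard error for each gene, HDM against PBS in both genotypes on the left and TG against WT under both treatments on the right; filled points passed an adjusted p of 0.05. The filled points are Egr2 (2.59 and 2.83), Jun (-0.60 and -0.90) and Junb in TG lungs (1.52), and no point is filled on the right.

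Whether the difference between HDM and PBS libraries was unlike in the 2 genotypes was tested as the interaction on all 8 libraries. Sex and treatment cannot be told apart here either. None of the 10 genes passed in edgeR's test, and 0 had an unadjusted p under 0.05, against 1.76% (1.05% higher, 0.706% lower) and 14.7% of the 15868 genes tested, and DESeq2 also gave 0 and 0. The smallest p was that of Junb, with an interaction of 1.20 on the log2 scale (SE 0.59, unadjusted p = 0.0547, adjusted p = 0.353). Egr2 had 0.20 (SE 0.69) and Jun -0.33 (SE 0.27). The rise of Junb was thus called in 1 genotype without being shown to differ between them.

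A list of 50 other immediate early genes gives the wider class. It was chosen with earlier results of these data known, so its shares below are no test of it. Egr4 had 3 counts or fewer in every library, and 47 or 48 of the 50 could be tested. In WT lungs HDM raised 2 of 47 and lowered 4, 12.8% of those tested, and in TG lungs it raised 3 and lowered 6, 19.1%, beside 6.74% and 13.8% of all genes. The medians were -0.04 and -0.30. Rgs1, a regulator of G-protein signalling in lymphocytes, rose from 8.44 and 8.90 to 31.2 and 34.4 CPM in WT lungs (log2 fold change 1.92, adjusted p = 0.00354) and from 5.99 and 2.96 to 46.6 and 50.1 CPM in TG lungs (3.45, adjusted p = 0.000342), and it held in all 14 alternatives of each comparison. Dusp1, the phosphatase that switches off p38 and JNK, fell from 433 and 412 to 214 and 239 CPM in WT lungs (-0.90, adjusted p = 0.000569) and from 459 and 602 to 188 and 229 CPM in TG lungs (-1.33, adjusted p = 0.00126, lost without replicate 2 of the PBS libraries, 0.0814). Nr4a2, the closest relative of Nr4a1, fell in WT lungs from 22.8 and 20.0 to 5.45 and 6.23 CPM (-1.87, adjusted p = 0.0139, lost without replicate 1 of the PBS libraries, 0.0830). Klf4, an epithelial and endothelial transcription factor (-0.72, adjusted p = 0.0187), and the clock gene Per1 (-0.78, adjusted p = 0.0387) fell in WT lungs as well, calls lost without PBS replicate 1 or 2 and, for Per1, also without HDM replicate 1, in 1 fit of all 8 libraries and with the length offset. Both were called lower in TG lungs too (-0.73, adjusted p = 0.0420 for Klf4, and -1.05, adjusted p = 0.0235 for Per1). In TG lungs Nr4a2 was at 15.7 and 18.1 CPM after PBS and 6.44 and 7.82 CPM after HDM (-1.22, adjusted p = 0.119).

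For the next 3 genes a call in 1 genotype does not show a difference between genotypes, since none had an interaction past the threshold. Dusp2, a phosphatase of ERK in lymphocytes, rose in TG lungs from 0.798 and 4.54 to 47.0 and 15.8 CPM (log2 fold change 3.58, adjusted p = 0.00833, 0.0999 without replicate 1 of the PBS libraries), and had 2.80 (adjusted p = 0.0520) in WT lungs. Myc rose in TG lungs from 5.09 and 5.49 to 18.0 and 21.2 CPM (1.91, adjusted p = 0.0219), a call lost with the length offset and without PBS replicate 1 or 2 or HDM replicate 2, and in WT lungs it was at 13.6 and 10.04 against 22.9 and 21.0 CPM (0.89, adjusted p = 0.200). Errfi1, the feedback inhibitor of EGFR, was the 1 list gene that differed between genotypes after PBS (2.13% of those tested, beside 0.657% of all genes), with 329 and 325 CPM in TG against 186 and 179 CPM in WT lungs (0.83, adjusted p = 0.00282). It fell after HDM in TG lungs to 109 and 144 CPM (-1.35, adjusted p = 0.00125, lost without PBS replicate 1 or 2), and was at 109 and 138 CPM after HDM in WT lungs (-0.56, adjusted p = 0.0548). The adjusted p of the interaction was 0.799 for Dusp2, 0.458 for Myc and 0.138 for Errfi1.

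Phlda1, a regulator of growth and survival, and Rhob, a small GTPase, were the 2 list genes with an interaction, 4.17% of those tested beside 1.76% of all genes. Phlda1 rose with HDM in WT lungs from 67.7 and 98.9 to 159 and 170.2 CPM (log2 fold change 0.98, adjusted p = 0.00627, lost without PBS replicate 1) and fell in TG lungs from 97.2 and 119 to 43.9 and 44.9 CPM (-1.26, adjusted p = 0.00608, lost without PBS replicate 1 or 2). Rhob had 82.9 and 92.3 CPM in PBS-treated WT, 141 and 125 in HDM-treated WT, 146 and 139 in PBS-treated TG and 50.8 and 36.8 CPM in HDM-treated TG lungs, where its fall was -1.68 (adjusted p = 0.00134, lost without PBS replicate 1 or 2). The interaction was -2.27 for Phlda1 (adjusted p = 0.000398) and -2.31 for Rhob (adjusted p = 0.000194), and it held in all 16 alternatives. Between genotypes after HDM, both were lower in TG lungs (-1.85, adjusted p = 0.00160, and -1.57, adjusted p = 0.00781). The paper lists both genes as lowered there, from these same libraries. They were the only calls among 48 list genes, 4.17% beside 2.44% of all genes, and both were lost without either WT library.

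**Figure D5:**
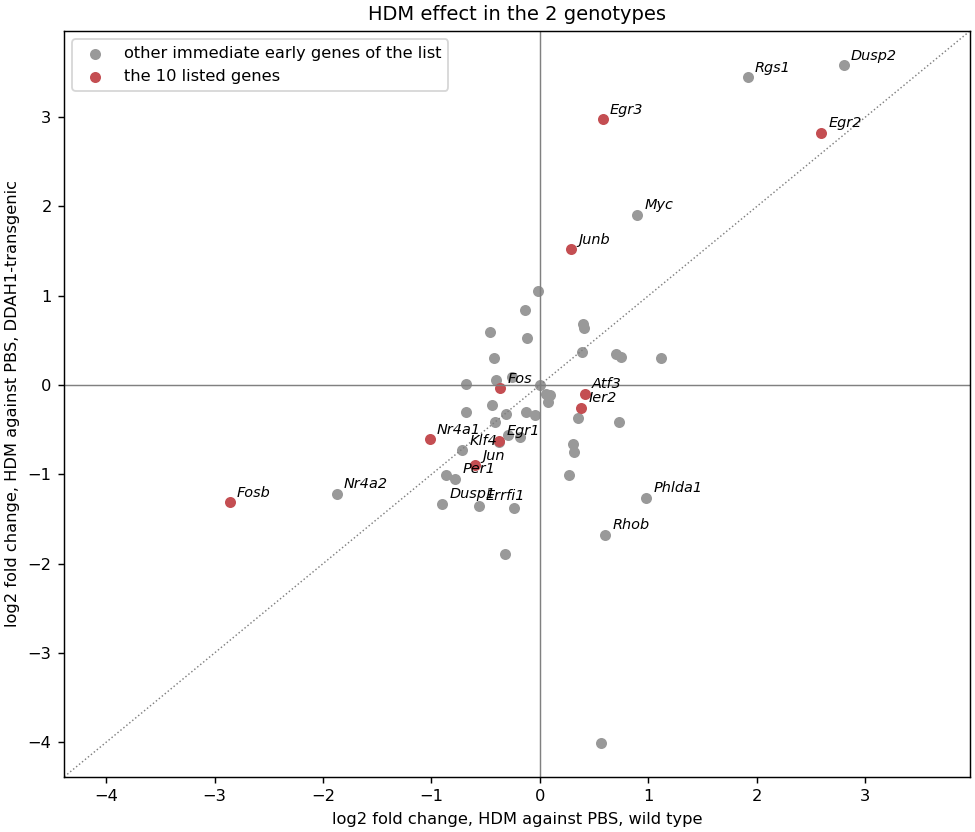
Log2 fold change of HDM against PBS in WT lungs (horizontal axis) and in TG lungs (vertical axis) for the 10 genes (red) and the other immediate early genes (grey, named where called in at least 1 genotype); the dotted line marks equal values. Egr2, Rgs1 and Dusp2 lie at the upper right, Fosb, Nr4a2, Nr4a1 and Jun at the lower left, and Phlda1 and Rhob at the lower right.

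Upstream of these genes, 32 kinases and factors were all tested. HDM raised Mef2c, a partner factor of immediate early promoters, in WT (log2 fold change 0.94, adjusted p = 0.0155) and in TG lungs (1.08, adjusted p = 0.0271). It was the 1 call of 32 in WT lungs (3.12%, beside 6.74% of all genes), and 3 of 32 were called in TG lungs (9.38%, beside 13.8%), so that both shares lay under that of all genes. Hras was also called higher in TG lungs (2.69, adjusted p = 0.0160), but with 10.3 CPM in replicate 1 and 47.7 CPM in replicate 2 after HDM, and without replicate 2 the call was lost. Egfr was also called lower in TG lungs (-1.03, adjusted p = 0.0376), and this call held in 7 of 14 alternatives. In WT lungs the call of Mef2c was lost without PBS replicate 2 (adjusted p = 0.105) or HDM replicate 2 (0.0729), and in TG lungs without PBS replicate 1 (0.105), PBS replicate 2 (0.306) or HDM replicate 1 (0.0581). None of the 32 was called between genotypes after PBS or after HDM in edgeR's test, where 1 and 4 had an unadjusted p under 0.05, beside 9.98% and 16.2% of all genes.

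Of 15 dimer partners and co-repressors, 1 was called lower after HDM in TG lungs, beside 5.35% of all genes. It was Atf2, a bZIP partner of JUN, which fell from 139 and 117 to 58.0 and 62.2 CPM (log2 fold change -1.06, adjusted p = 0.0101), a call lost without TMM scaling (-0.68, 0.0737), with the additive fit (-0.50, 0.151) and without PBS replicate 1 (0.163) or 2 (0.112). None of the list was called between genotypes in edgeR's test after PBS or after HDM, with 2 at an unadjusted p under 0.05 in each comparison. Of all genes, 0.657% and 2.44% were called, and 9.98% and 16.2% had such an unadjusted p.

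Stress and hormone genes that respond through other routes were listed beside them. Of 12 heat shock genes, 0 were called after HDM in WT lungs in edgeR's test (6.74% of all genes), with 4 at an unadjusted p under 0.05 (19.9% of all genes). In TG lungs 3 were called, 25% beside 13.8% of all genes. There Hspe1, a mitochondrial chaperonin, rose from 51.9 and 50.4 to 181 and 150.2 CPM (log2 fold change 1.72, adjusted p = 0.000580) and the co-chaperones Dnaja1 (-0.88, 0.00870) and Hsph1 (-0.92, 0.0168) fell. The call of Hspe1 was lost without PBS replicate 2 (0.0540), and those of Dnaja1 and Hsph1, past the threshold in 8 and 9 of 14 alternatives, with the length offset, without TMM and without PBS replicate 1 or 2. Between genotypes 1 of the 12 was called after PBS, Dnaja1 (0.58, adjusted p = 0.0223), and 1 after HDM, Hspe1 (0.99, adjusted p = 0.0382). Each is 8.33% of the list, beside 0.657% and 2.44% of all genes, and both were lost when either WT library was left out. Dnaja1 was also lost in 1 fit of all 8 libraries, with the replicate block, without TMM and with the additive fit. Hspe1 was also lost with the length offset, with offset and block together and with the additive fit. Of 12 glucocorticoid-induced genes, which share Errfi1, Dusp1, Per1 and Sgk1 with the list of other immediate early genes, 4 were called higher in TG than in WT lungs after PBS, 33.3% beside 0.281% of all genes. They were Errfi1, the transcription factor Zbtb16 (1.17, adjusted p = 0.00697), Tsc22d3, which encodes GILZ (1.12, adjusted p = 0.0103), and the cell cycle inhibitor Cdkn1a (1.12, adjusted p = 0.0174). The paper lists all 4, and Dnaja1 of the heat shock genes, as raised in PBS-treated TG lungs, from these same libraries. As the lists were chosen with earlier results of these data known, the shares of this list and of the other lists are no test of them. Without WT replicate 2 the calls of Zbtb16 (0.0554) and Tsc22d3 (0.0759) were lost, and without WT replicate 1 that of Cdkn1a (0.190). With the replicate block these 3 calls were all lost (0.0762, 0.0768 and 0.0648), and Errfi1 was the 1 of the 4 that passed. After HDM, Tsc22d3 was higher in TG lungs (1.71, adjusted p = 0.00998), a call lost without WT replicate 1 (0.186) or 2 (0.230). HDM lowered 3 of the 12 in WT (25%, beside 2.3% of all genes) and 6 in TG lungs (50%, beside 5.35%), among them the transcription factor Klf9 in both (-0.87, adjusted p = 0.00914, and -1.52, adjusted p = 0.00387) and Zbtb16 in TG lungs (-1.87, adjusted p = 0.00106). These calls of Klf9 were lost without PBS replicate 2 in WT lungs and without PBS replicate 1 or 2 in TG lungs, and that of Zbtb16 without PBS replicate 2.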

How the data were processed

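RNA from the lungs of 4 mice per group was pooled in equal amounts, amplified and sequenced in duplicate as single reads of 50 cycles. Reads were aligned with TopHat to mm10, and the authors deposited raw counts per gene, taken over coding regions with ShortRead and their own R code. The submitters' processing notes name CASAVA 1.8. Total counts were 5694928 to 11929374 per library. The floor of 3 counts is a fixed setting, while SDs and standard errors hold the spread between libraries of the same pool.

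Of 23469 Entrez identifiers, 23372 were named through RefSeq. Counts were filtered with filterByExpr (minimum count 10), scaled with TMM and tested with edgeR 4.0.16 (glmQLFit, glmQLFTest, R 4.3.3) on the 4 libraries of each comparison, and on all 8 for the interaction. P-values were adjusted by Benjamini-Hochberg over all genes tested, with a threshold of 0.05. Levels are CPM on 1 TMM scale of all 8 libraries, so that folds of levels and fitted folds can differ slightly. Alternatives were DESeq2 1.42.0, RLE factors, total counts without TMM, no filter, library sizes without Rn45S and haemoglobin genes, 1 fit of all 8 libraries, a replicate block, an offset for transcript length (GENCODE M21, loess span 0.5), both together and each library left out. The additive fit and the coding length were added after the data had been seen.

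The 10 genes and the lists were chosen with earlier results of these data known. Named from each other list were the genes past the threshold, with no overlap between groups and the smallest adjusted p, up to 4 per direction, and Nr4a2 and Dusp2 are also given where they were not called. Genes with a pattern like that of a member were not searched for, since 8 libraries hold only 4 independent pools. The result of 1 gene in these lists is not reported here.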

Additional observations from a re-analysis of the deposited data

Results flagged for a closer look

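In 4 genes of the lists beside the 10 immediate early genes, the genotype difference was unlike between HDM and PBS libraries by the interaction test (edgeR, Benjamini-Hochberg adjustment over 15868 genes). Of all genes tested, 1.76% passed. Sex of the pools and treatment cannot be told apart in this test. The interaction was -2.31 on the log2 scale for Rhob (adjusted p = 0.000194), -2.27 for Phlda1 (adjusted p = 0.000398) and -1.92 for Cdkn1a (adjusted p = 0.00490), each past the threshold in 16 of 16 alternatives. For Zbtb16 it was -1.50 (adjusted p = 0.0334), past the threshold in 8 of 16 alternatives, with adjusted p-values of up to 0.193. Cdkn1a was at 37.2 and 48.3 CPM in PBS-treated WT, 61.7 and 66.3 in HDM-treated WT, 85.6 and 102 in PBS-treated TG and 38.8 and 35.7 CPM in HDM-treated TG lungs. Zbtb16 was at 59.6 and 47.3, 41.1 and 40.1, 106 and 136, and 37.0 and 28.2 CPM in the same order. None of the 10 immediate early genes had an interaction past the threshold.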

How the results depend on the processing

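With 2 libraries of 1 pool per group, no variation between mice was measured, and genes of few counts, such as Egr3 and Fosb, gave wide errors. Of the log2 fold changes of the 10 genes, 440 kept direction and side of the threshold under the alternatives that kept all libraries and 25 changed sign, and with 1 library left out 199 kept both and 21 changed sign. Under the alternatives that kept all libraries, a further 9 values gained a call and 6 lost one. Most of the fold changes were not called to begin with, and staying uncalled counts as keeping the side. Where no cause is given below, the cause was not tested. Of the 10 genes, total counts without TMM called 1 between genotypes after PBS, and no filter called 2 after HDM. For HDM against PBS in WT lungs, DESeq2 called 4, no filter 4, 1 fit of all libraries 1 and the length offset 1. Leaving out 1 library gave 0 to 1, 0 to 1, 1 to 3 and 0 to 4 for TG against WT after PBS, after HDM, and HDM against PBS in WT and TG lungs, and 0 throughout for the interaction.

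Over all genes, TG against WT after PBS (98 calls, 42 higher and 56 lower) gave 223 with DESeq2, 306 without filter, 288 without TMM (33 higher, 255 lower), 179 with length offset and replicate block, 7 with the additive fit and 75 to 432 with 1 library left out. After HDM (370, 279 higher and 91 lower) the counts were 922, 1055, 771 in 1 fit of all libraries, 173 with the length offset (107 higher, 66 lower) and 7 with the additive fit, and 6 to 1595 with 1 library left out, where 6 were left without WT replicate 1 and 20 without WT replicate 2. Without TMM that split was 478 to 52. HDM against PBS in WT lungs (1020) gave 1588 without filter, 2058 with the additive fit and 652 to 1661 with 1 library left out. In TG lungs (2079, 1272 higher and 807 lower) it was 2180 higher and 239 lower without TMM, and 277 to 2676 with 1 library left out, the lowest without PBS replicate 2 and 404 without PBS replicate 1. The interaction (279, 167 higher and 112 lower) gave 680 with DESeq2, 675 without filter, 713 without TMM (674 higher, 39 lower), 97 higher and 96 lower with the length offset, and 138 to 721 with 1 library left out. Without TMM the median of all genes moved to -0.24, 0.19, -0.05, 0.42 and 0.48 in these 5 comparisons. Fold change and transcript length correlated over all genes (Spearman) at 0.0129 for TG against WT after PBS and at -0.281 after HDM. For HDM against PBS the values were -0.126 in WT and -0.331 in TG lungs, so that shorter genes tended to higher values in the HDM-treated TG libraries.

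Replicate numbers did not pair the samples: deviations of same-numbered libraries correlated between -0.0201 and 0.0310 over 15868 genes. With the replicate block the calls over all genes were 45 for TG against WT after PBS and 625 after HDM, and among the 10 genes 0, 0, 2, 3 and 0 in the 5 comparisons. The block turned the genotype difference after HDM to -0.56 for Fosb and -0.034 for Egr2, and together with the length offset to -0.44 for Fosb and 0.057 for Jun.

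None of the sign changes that follow concerns a called value. For TG against WT after PBS, Nr4a1 was 0.00056 with RLE factors, 0.00056 with DESeq2, 0.019 with the length offset, 0.0044 with offset and block and 0.19 with the additive fit, Ier2 was -0.081 without TMM and -0.14 with the additive fit, which gave 0.079 for Fos and 0.48 for Junb. After HDM, Jun was 0.069 with the length offset, 0.18 without TMM and 0.12 with the additive fit, which gave -0.20 for Fosb and -0.083 for Egr2. For HDM against PBS in TG lungs, Fos was 0.35, Atf3 0.29 and Ier2 0.14 without TMM, and Atf3 0.16 and Ier2 0.059 with the additive fit. The interaction without TMM was 0.15 for Jun and 0.22 for Egr1. With 1 library left out, TG against WT after PBS ranged from -0.26 to 0.12 for Fos, -1.62 to 0.47 for Fosb, -0.46 to 0.25 for Junb, -0.11 to 0.43 for Ier2 and -0.24 to 0.21 for Nr4a1, and after HDM from -0.24 to 0.19 for Jun, -0.71 to 0.56 for Egr2 and -6.15 to 1.56 for Fosb. HDM against PBS ranged from -0.029 to 0.67 for Junb in WT lungs and from -0.49 to 0.18 for Atf3 and -0.88 to 0.16 for Ier2 in TG lungs. The interaction ranged from -0.62 to 0.13 for Egr1, -0.54 to 0.69 for Egr2 and -5.33 to 2.47 for Fosb.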
